A study of Rattus norvegicus with 6 samples.

Results

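The cadherin superfamily and the catenins were compared between cultured VSM cells of young and old rats, grown out of the SFA, the feed artery that brings blood to the soleus muscle. Members were chosen by gene symbol, as every Cdh, Pcdh, Fat, Dchs, Celsr, Dsg and Dsc gene, the alpha- and delta-catenin genes (Ctnna, Ctnnd) and Jup, the gene of gamma-catenin. This gave 41 of the 14475 genes measured. The 3 young cultures came from male Fischer 344 rats aged 4 months and the 3 old cultures from male Fischer 344 rats aged 24 months. No treatment, transgene or stretch set the groups apart, and the cells of both ages were grown in serum-containing medium, so the RNA describes cultured cells and not the artery wall. Each culture gave 1 library of polyadenylated RNA. Each group comprised 3 rats.

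Cadherins are membrane proteins whose extracellular repeats bind calcium and, in the classical members, join a cell to its neighbor by pairing with the same cadherin on the other side. The tails of the classical cadherins hold beta- or gamma-catenin and p120-catenin, and alpha-catenin ties that complex to actin. In smooth muscle, N-cadherin (Cdh2) and cadherin-11 (Cdh11) are known as junction cadherins, T-cadherin (Cdh13) as a tailless cadherin of the vessel wall, and Fat1 as a giant cadherin that is produced by smooth muscle after vascular injury.

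Total counts on genes ranged from 44235674 to 59700887 per library, and values are given in CPM after TMM normalization (counts scaled to a common library size), which are not corrected for gene length and are therefore compared between libraries and not between genes. The 3 replicates of a group differed by far more than sampling noise, with a chi-square of at least 67.1 per gene between any pair. The summed level of 8 smooth muscle markers was 11200 to 21300 CPM in young and 3450 to 5560 CPM in old libraries, so all old cultures lay below all young ones. The 8 fibroblast markers summed to 747 to 1320 CPM in young and 1660 to 2700 CPM in old libraries. Bulk libraries cannot tell fewer cells of a type from less RNA per cell, and the part of these marker shifts in the values below was not tested. The endothelial cell markers (7 of 12 measured) summed to 36.1 to 45.4 CPM in young and 33.0 to 44.4 CPM in old libraries, most of it Egfl7 at 12.9 to 31.7 CPM and Tek at 2.64 to 16.8 CPM. Their defining genes Pecam1 and Vwf stayed under 1 CPM in each library, and Cdh5 and Tie1 were not analysed here. Of the 7, 3 were higher on average in old cells (Tek, Vwf and Pecam1, log2 fold changes 0.77, 0.65 and 0.28) and 4 were lower. Only Erg, among those lower, had an unadjusted edgeR p under 0.05 (log2 fold change -2.03, SE 0.66, DESeq2 adjusted p = 0.0194, edgeR adjusted p = 0.159). Of the epithelial markers 1 of 8 was measured, the keratin Krt8, at 2.36 to 3.58 CPM. The pericyte markers (4 of 6 measured) summed to 904 to 1370 CPM in young and 667 to 1520 CPM in old libraries. Most of that sum was Pdgfrb, at 502 to 1411 CPM (log2 fold change 0.32, SE 0.37). Cspg4 was lower in each old library than in each young one (-1.40, SE 0.30, edgeR adjusted p = 0.0853, DESeq2 adjusted p = 0.000341). Notch3 (-2.83, SE 1.39) and the defining gene Abcc9 (-0.14, SE 0.72) had overlapping groups. Abcc9 stayed under 1 CPM in each library, and Kcnj8, the other defining gene, was not analysed here. In young and old, the Schwann cell and neural markers (3 of 8) summed to 12.5 to 75.2 and 54.3 to 85.4 CPM. The macrophage and leukocyte markers (3 of 8) summed to 5.13 to 16.0 and 10.4 to 16.8 CPM.

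Of the 98 rat genes in RefSeq whose symbols meet the same rule, 57 were not analysed here, among them Cdh1, Cdh5, Cdh6, Cdh19, Pcdh12, Ctnna2, Ctnna3, Ctnnd2 and every Dsg gene. The members measured were 3 classical type I cadherins, 3 type II cadherins, 3 other Cdh genes, 2 desmocollins, 5 non-clustered protocadherins, 15 clustered protocadherins, 4 Fat and Dachsous genes, 3 Celsr genes and 3 catenins. A further 1518 rows had no gene symbol, and members among those could not be found.

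Old against young, 25 members were higher and 16 lower on average, with a median log2 fold change of 0.22 against 0.02 over all genes. Without the 13 Pcdhb genes, which are clustered protocadherins, 14 members were higher and 14 lower, with a median of 0.03. The edgeR quasi-likelihood test with Benjamini-Hochberg adjustment called 0 members (adjusted p under 0.05 with a log2 fold change of 1 or more in either direction), and Cdh24 had the lowest adjusted p of a member, 0.119. Over all genes that test called 1 gene, or 0.00691%. DESeq2 called 4 members (9.76%), Cdh24 and Pcdh1 lower and Dsc2 and Cdh23 higher, beside 5.56% of all genes, and limma-voom called 0. At an unadjusted edgeR p under 0.05 stood 9 members (22%), beside 22.6% of all genes. Of these 9, 4 were higher in old cells and 5 lower, and the background was 11.2% of all genes higher and 11.5% lower. DESeq2 gave 10 members at an unadjusted p under 0.05 (24.4%, beside 26.0% of all genes) and limma-voom gave 6 (14.6%, beside 23.1%). The 3 old libraries lay all above or all below the 3 young ones for 9 members (22%), beside 29.2% of all genes. Of those 9, 5 lay above, where the background was 14.5%, and 4 below, where it was 14.7%. The shares of the family at an unadjusted p under 0.05 and without overlap were thus close to, or below, those of all genes, and its share of DESeq2 calls was higher, on 4 genes. An exact permutation test of 3 against 3 libraries cannot go below p = 0.10 and was not used gene by gene.

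**Figure D1:**
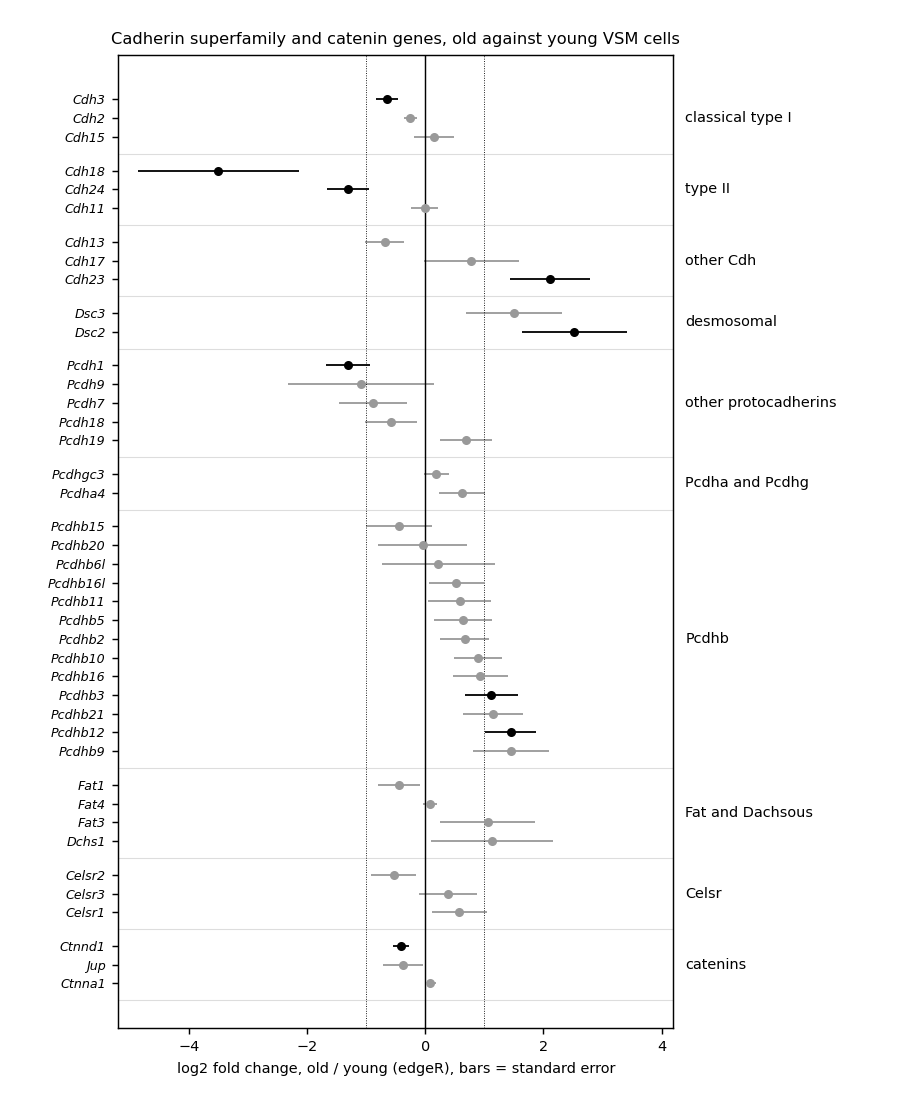
Log2 fold change (old against young, edgeR) of the 41 members, grouped by subfamily, with horizontal bars for the standard error and dotted lines at -1 and 1. Black points are the 9 members at an unadjusted p under 0.05, and 11 of the 13 Pcdhb points lie right of 0.

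The members with the 2 lowest adjusted p by edgeR, a type II cadherin and a non-clustered protocadherin, were both lower in old cells. Cdh24 (ENSRNOG00000013503), a type II cadherin that binds catenins, measured 6.07, 4.32 and 5.68 CPM in young replicates 1, 2 and 3 and 2.71, 2.56 and 1.19 CPM in old replicates 1, 2 and 3. All old cultures were below all young ones. The means were 5.36 ± 0.92 CPM (SD, n = 3) and 2.16 ± 0.84 CPM (SD, n = 3), a log2 fold change of -1.31 (SE 0.35). The adjusted p was 0.119 by edgeR and 0.00713 by DESeq2. Leaving out each library in turn gave log2 fold changes of -1.51 to -1.02.

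Pcdh1 (ENSRNOG00000060410), a non-clustered protocadherin found at cell-cell contacts of epithelium, measured 4.59, 9.44 and 3.70 CPM in young and 2.21, 2.42 and 2.5 CPM in old cultures. The old cultures agreed closely with each other and lay below all young ones, among which replicate 2 was the highest. The log2 fold change was -1.31 (SE 0.38), with an adjusted p of 0.130 by edgeR and 0.0142 by DESeq2. Without young replicate 2 it was -0.80.

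Cdh18 (ENSRNOG00000010535), a type II cadherin best known from the nervous system, had 10, 133 and 138 counts in young and 2, 0 and 22 counts in old libraries. Young replicate 1 had fewer counts than old replicate 3, so the groups overlapped, and old replicates 1 and 2 were within the 3 counts that a count of 0 allows. The fitted log2 fold change was -3.51 (SE 1.36), with an edgeR adjusted p of 0.203 and a DESeq2 adjusted p of 0.0664, and without old replicate 3 it was -6.31.

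The other non-clustered protocadherins did not reach an unadjusted p under 0.05 by edgeR. Pcdh7, Pcdh9 and Pcdh18 were lower on average in old cells, with log2 fold changes of -0.89 (SE 0.57), -1.09 (SE 1.24) and -0.58 (SE 0.45). Pcdh19, which pairs with N-cadherin in neurons, had 0.68 (SE 0.44). For Pcdh7 and Pcdh18 the top value was in young replicate 3, at 29.0 and 25.1 CPM, while the other 5 libraries held 3.75 to 13 and 6.87 to 12 CPM. For both genes young replicate 3 was the only young culture outside the old range.

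Higher values in old cells came from a desmocollin and from Cdh23. Dsc2 (ENSRNOG00000039969), the most widely made of the desmocollins, which are the adhesive cadherins of the desmosome, had 32, 22 and 52 counts in young and 28, 240 and 376 counts in old libraries. Old replicates 2 and 3 were above all young cultures, and old replicate 1 was among them. The means were 0.711 ± 0.346 CPM in young and 4.07 ± 3.26 CPM in old (SD, n = 3 each), and the log2 fold change was 2.52 (SE 0.89) with an adjusted p of 0.178 by edgeR and 0.0255 by DESeq2. Without old replicate 1 edgeR called the gene (log2 fold change 3.04, adjusted p = 0.0325). Its partner gene Dsc3 had 24, 298 and 92 counts in young and 173, 623 and 292 counts in old libraries, a log2 fold change of 1.5 (SE 0.82) with overlapping groups and an edgeR adjusted p of 0.313. The ratio of Dsc2 to Dsc3 counts ran from 0.0738 to 1.33 in young and from 0.162 to 1.29 in old libraries, so the pair did not vary in step.

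Cdh23 (ENSRNOG00000033087), a long atypical cadherin known as part of the tip link of hair cells, had 27, 55 and 9 counts in young and 70, 221 and 92 counts in old libraries. The old libraries were all above the young ones, and old replicate 2 was the highest at 4.25 CPM. The log2 fold change was 2.11 (SE 0.68), with an adjusted p of 0.159 by edgeR and 0.0254 by DESeq2, and it ranged from 1.45 without old replicate 2 to 2.66 without young replicate 2. Cdh17, an atypical cadherin of the intestine, had 28, 50 and 17 counts in young and 104, 10 and 44 counts in old libraries. Its groups overlapped on both sides.

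**Figure D2:**
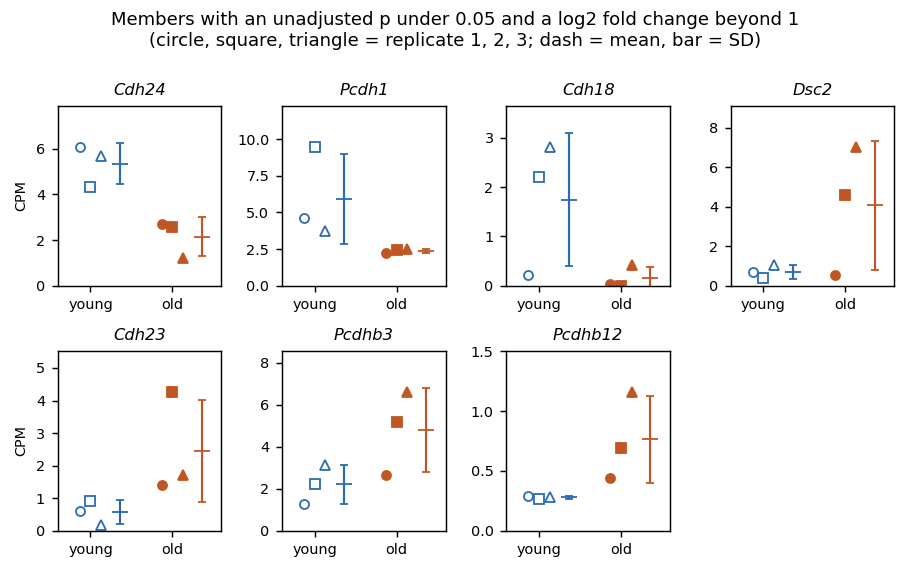
CPM by library of the 7 members with an unadjusted edgeR p under 0.05 and a log2 fold change beyond 1 in either direction, with circles, squares and triangles for replicates 1, 2 and 3, open for young and filled for old, and a dash and bar for mean and SD. For Cdh24 and Pcdh1 all old points lie below the young ones, for Cdh23 and Pcdhb12 all lie above, and for Cdh18, Dsc2 and Pcdhb3 the groups overlap.

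Among the classical type I cadherins, Cdh3 (P-cadherin) had the largest difference. Cdh3 (ENSRNOG00000020129) measured 75.1, 85.9 and 77.4 CPM in young and 65.5, 40.3 and 46.7 CPM in old cultures. All old cultures lay below all young ones, with old replicate 1 the nearest. The means were 79.5 ± 5.72 CPM and 50.8 ± 13.1 CPM (SD, n = 3 each), and the log2 fold change was -0.65 (SE 0.19), with an adjusted p of 0.134 by edgeR and 0.0319 by DESeq2. That difference stayed short of the fold threshold.

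Cdh2 (ENSRNOG00000015602), the N-cadherin of smooth muscle contacts, measured 74, 91.4 and 90.7 CPM in young and 76.1, 67.1 and 71.7 CPM in old cultures. Young replicate 1 fell inside the old range. Old against young, the log2 fold change was -0.25 (SE 0.11, edgeR adjusted p = 0.245). Cdh15, the cadherin of muscle precursors, stayed at 12 to 23 counts in every library, with a log2 fold change of 0.15 (SE 0.34). The other skeletal muscle and satellite cell markers, 7 of the 8 listed, were not analysed here.

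Cdh11 (ENSRNOG00000013481), the type II cadherin of mesenchymal cells, measured 266, 219 and 239.8 CPM in young and 314, 231 and 172 CPM in old cultures. The highest and the lowest library of the 6 were both old. The fitted log2 fold change was -0.01 (SE 0.22), and its sign turned when any of young replicate 1, old replicate 2 or old replicate 3 was left out. Cdh13 (ENSRNOG00000014371), T-cadherin, measured 131, 132 and 165 CPM in young and 52.5, 79.6 and 134 CPM in old cultures. Old replicate 3 was inside the young range and the other old cultures were below it. The log2 fold change was -0.69 (SE 0.33), with an adjusted p of 0.267 by edgeR and 0.182 by DESeq2, and it was -0.42 without old replicate 1 and -1.11 without old replicate 3.

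**Figure D3:**
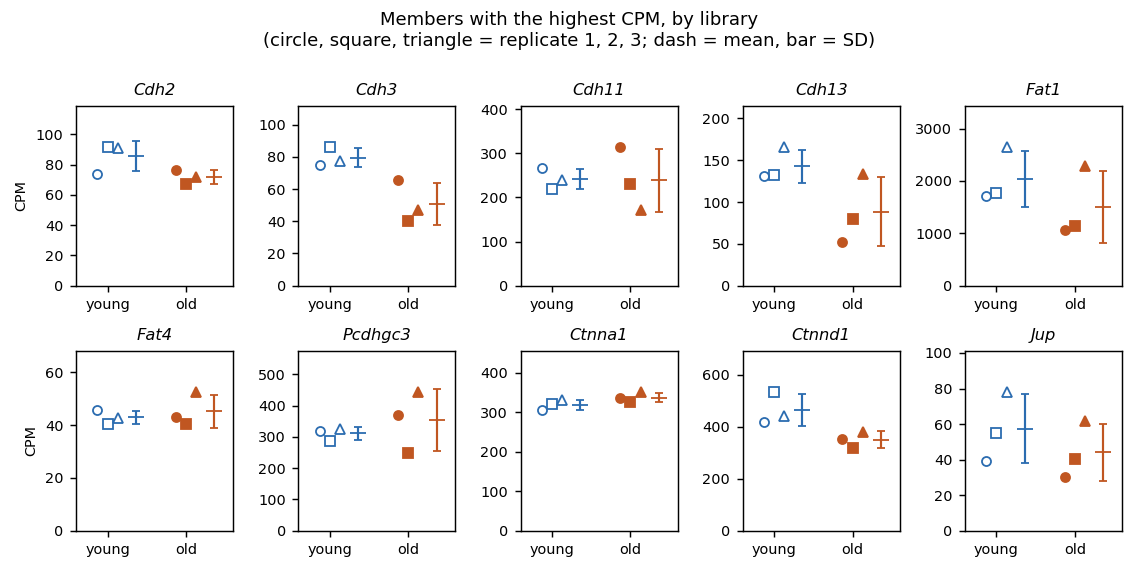
CPM by library of the 10 members with the highest mean CPM, with circles, squares and triangles for replicates 1, 2 and 3, open for young and filled for old, and a dash and bar for mean and SD. Each axis starts at 0. In Cdh3 and Ctnnd1 the old points lie below all young points, and in the other 8 panels the groups overlap.

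Of the catenins, the groups stood apart for the transcript of p120-catenin and overlapped for the others. Ctnnd1 (ENSRNOG00000030790), the gene of p120-catenin, which binds the part of the cadherin tail next to the membrane and keeps cadherins from being taken up, measured 419, 533 and 441 CPM in young and 352, 318 and 382 CPM in old cultures. All old cultures were below all young ones. The means were 464 ± 60.3 CPM and 350.3 ± 32.0 CPM (SD, n = 3 each), and the log2 fold change was -0.41 (SE 0.14), with an adjusted p of 0.167 by edgeR and 0.0533 by DESeq2. Ctnna1 (ENSRNOG00000005796), alpha-catenin, measured 306, 321 and 329.8 CPM in young and 335, 326 and 350.4 CPM in old cultures. edgeR gave a log2 fold change of 0.08 (SE 0.09). Jup (ENSRNOG00000015380), the gene of gamma-catenin, which serves desmosomes as well as adherens junctions, measured 39.5, 54.7 and 77.9 CPM in young and 30.5, 40.1 and 61.9 CPM in old cultures. Its spread within a group was wider than the difference, with a log2 fold change of -0.38 (SE 0.33, edgeR adjusted p = 0.517), or -0.09 without young replicate 3 and -0.70 without old replicate 3.

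The ratio of Ctnnd1 to Ctnna1 counts was chosen after its values were seen. It was 1.37, 1.66 and 1.34 in young libraries and 1.05, 0.975 and 1.09 in old libraries. The ranges of the groups did not overlap, and the ratio shows unequal change of the pair without saying which of the genes moved.

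The genes around the cadherins were counted in lists of known partners. These lists were written with earlier results of these data known, and the study itself reported Vcl, a listed gene, as lower in old cells. The shares below are therefore not independent of these data. Of 28 genes of the adherens junction and of catenin partners, 24 were measured, 9 of them higher and 15 lower in old cells, with a median log2 fold change of -0.38. At an unadjusted p under 0.05 stood 11 of the 24 (45.8%), and all 11 were lower in old cells, with each old library below each young one. Over all genes 22.6% had such a p, 11.5% in the lower direction, and 14.7% had all old libraries below the young ones. edgeR called 0 of these genes after adjustment, DESeq2 called 7 (29.2%, beside 5.56% of all genes) and limma-voom called 0. Among those DESeq2 called were Pkp2, Pkp1, Plekha7, Vcl, Actn1 and Actn4, with log2 fold changes of -1.67 to -1.08. Vcl and Actn1 also belong to focal adhesions and stress fibers, so the list is not one of cell-cell contacts alone.

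Pkp2, a plakophilin that links desmosomal cadherins to desmoplakin, measured 39.2, 36.9 and 31.5 CPM in young and 12.7, 9.95 and 11.4 CPM in old cultures. All 3 old cultures lay below all young ones, and the replicates of each age were close together. The log2 fold change was -1.66 (SE 0.14), with an adjusted p of 0.0531 by edgeR and 8.85e-20 by DESeq2. Pkp1, the plakophilin of stratified epithelium, went from 132 ± 39.8 CPM to 46.4 ± 9.86 CPM (SD, n = 3 each) with a log2 change of -1.5 (SE 0.26) and an edgeR adjusted p of 0.0644. On average, the desmosomal plaque genes Pkp1 and Pkp2 were lower in old cells and the desmosomal cadherin genes Dsc2 and Dsc3 higher. The young and old groups overlapped for Dsc2 and for Dsc3. Dsp, the desmoplakin gene, had a log2 fold change of -0.27 (SE 0.51).

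Plekha7, whose protein binds p120-catenin at the junction, had a log2 fold change of -1.67 (SE 0.56) with the young libraries at 24.1, 30 and 97.0 CPM and the old at 13.8, 12.6 and 21.2 CPM. Vcl (vinculin), which binds alpha-catenin under tension, had -1.48 (SE 0.39). The actin crosslinkers Actn1 and Actn4 had -1.45 (SE 0.26) and -1.08 (SE 0.27). Ctnnb1, the gene of beta-catenin, measured 354 to 461 CPM over the 6 libraries, with a log2 fold change of -0.11 (SE 0.12).

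The list of cadherin processing and signalling partners was measured in full, 16 of 16 genes, with a median log2 fold change of 0.07. Only Dvl2 and Pcsk5 had an unadjusted p under 0.05 (12.5%, beside 22.6% of all genes), and both were higher in old cells. Pcsk5, a proprotein convertase, had a log2 fold change of 1.07 (SE 0.43) with overlapping groups and an edgeR adjusted p of 0.214. Adam10, the protease that sheds cadherin ectodomains, had 0.09 (SE 0.09). Of 10 cadherin-like genes outside the rule, 6 were measured, and the gene at an unadjusted p under 0.05 was Dag1, lower in old cells. Dvl2, Adam10 and Dag1 were named after their values were seen.

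**Figure D4:**
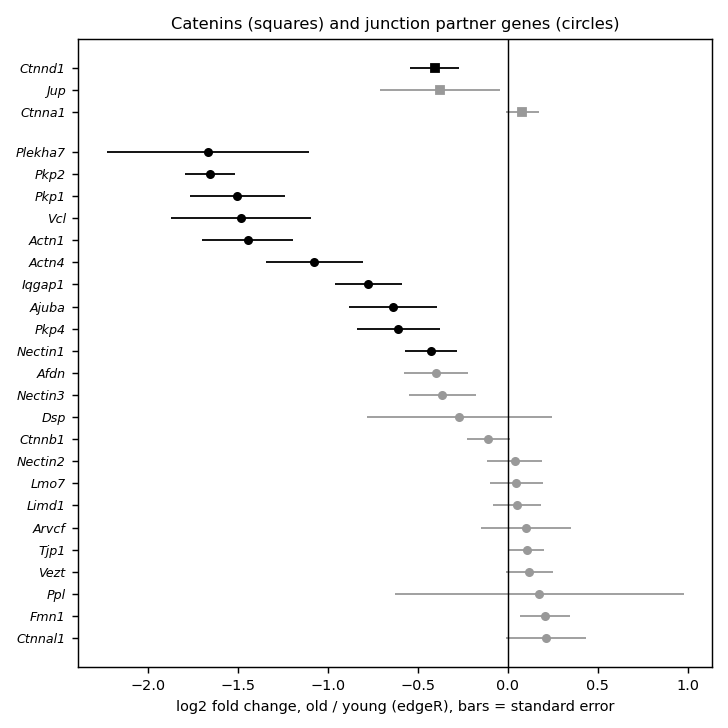
Log2 fold change (old against young, edgeR) of the 3 catenins measured (squares) and of adherens junction and catenin partner genes (circles), with bars for the standard error. Black marks an unadjusted p under 0.05, and every black point, Ctnnd1 among them, lies left of 0.

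The clustered protocadherins are neuronal adhesion genes laid out in tandem on 1 chromosome, where each Pcdhb gene is a single large exon with its own promoter. Of the 13 Pcdhb genes, 11 were higher and 2 lower on average in old cells, with a median log2 fold change of 0.66, while 52.0% of all genes were higher. None of the 13 was called by edgeR, DESeq2 or limma-voom after adjustment. At an unadjusted p under 0.05 stood 2 by edgeR (15.4%, beside 22.6% of all genes), 2 by DESeq2 (beside 26.0%) and 1 by limma-voom (beside 23.1%). The old libraries lay above the young ones in 4 of the 13, Pcdhb9, Pcdhb10, Pcdhb12 and Pcdhb16 (30.8%, beside 14.5% of all genes), and below them in 0. These genes are low in count, at 0.182 to 4.10 CPM on average, and resemble each other in sequence. The sources used here do not say how reads fitting several genes were counted, so the 13 values may share reads.

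Pcdhb12 (ENSRNOG00000033719) had 13, 16 and 14 counts in young and 22, 36 and 62 counts in old libraries. All old cultures were above all young ones, which hardly differed from each other. The difference, as a log2 fold change, was 1.45 (SE 0.43), with an adjusted p of 0.139 by edgeR and 0.0686 by DESeq2, and without old replicate 1 it was 1.72 with an edgeR adjusted p of 0.0493. Pcdhb3 (ENSRNOG00000020095) had 58, 134 and 154 counts in young and 131, 269 and 353 counts in old libraries. Old replicate 1 fell inside the young range. Its log2 fold change was 1.11 (SE 0.45), with an adjusted p of 0.213 by edgeR and 0.105 by DESeq2.

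The remaining Pcdhb genes had log2 fold changes from -0.45 to 1.45. Pcdhb9 had 16, 12 and 6 counts in young and 18, 19 and 60 in old libraries, so 1 old culture carried most of its difference. Pcdhb16 had 46, 62 and 61 counts in young and 66, 192 and 68 in old libraries, again with 1 high old culture, which was another one. The genes below 0 were Pcdhb15 at -0.45 (SE 0.56) and Pcdhb20 at -0.04 (SE 0.75). The summed level of the 13 genes was 8.26, 11.8 and 16.6 CPM in young and 14.4, 23.4 and 21.2 CPM in old libraries. Old replicates 2 and 3 were above all young cultures and old replicate 1 was between young replicates 2 and 3. Of the 13 genes, 5 had their highest value in old replicate 2 and 5 in old replicate 3.

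**Figure D5:**
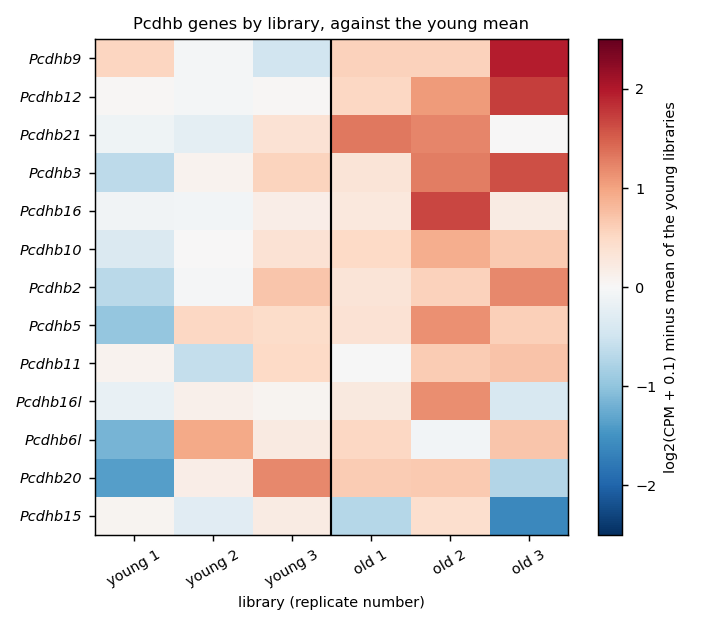
Level of the 13 Pcdhb genes in each library as log2(CPM + 0.1) minus the mean of the young libraries, with red for higher and blue for lower values and a vertical line between young and old. Red is deepest in old replicates 2 and 3, and each of them also holds genes at or below the young mean.

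The promoters of the Pcdhb genes are known to carry a conserved element with the core CGCT that binds the chromatin factor CTCF. In RefSeq's promoter sequences (250 bases before to 50 after each start, build GRCr8), 31 of the 41 members had an entry, among them 12 of the 13 Pcdhb genes. The run of 10 letters found in the most Pcdhb promoters was GGTGGCGCTG, searched on both strands with no other motif. It was present in 15 of 19 rat Pcdhb promoters (78.9%), in 9 of the 12 Pcdhb members (75.0%), in 0 of 16 Pcdha and Pcdhg promoters, in 0 of 20 other member promoters and in 74 of 33469 promoters in all (0.221%). The word was picked for being common in the Pcdhb promoters, so its high share there is how it was found. The core CGCT was not searched for by itself. The absence of the word from the Pcdha and Pcdhg promoters therefore does not show that they lack the element. In the 8 members with the word before the start site it began 52 to 98 bases upstream. The 60 bases around it are shown for these 8, to let the shared word be read beside the differing bases around it, on the plus strand with the word in capitals.
Pcdhb2, chr18:29279908-29279967: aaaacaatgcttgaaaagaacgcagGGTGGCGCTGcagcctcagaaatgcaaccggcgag
Pcdhb3, chr18:29285589-29285648: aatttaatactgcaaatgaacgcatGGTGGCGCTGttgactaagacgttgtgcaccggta
Pcdhb5, chr18:29302389-29302448: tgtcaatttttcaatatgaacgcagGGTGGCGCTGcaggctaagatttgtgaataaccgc
Pcdhb9, chr18:29379233-29379292: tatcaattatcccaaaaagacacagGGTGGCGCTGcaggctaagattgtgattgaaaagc
Pcdhb10, chr18:29391763-29391822: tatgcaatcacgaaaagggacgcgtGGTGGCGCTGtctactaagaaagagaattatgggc
Pcdhb12, chr18:29413633-29413692: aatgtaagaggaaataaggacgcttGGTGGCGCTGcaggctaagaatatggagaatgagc
Pcdhb20, chr18:29485795-29485854: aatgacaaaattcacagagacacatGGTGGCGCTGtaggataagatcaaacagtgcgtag
Pcdhb21, chr18:29492134-29492193: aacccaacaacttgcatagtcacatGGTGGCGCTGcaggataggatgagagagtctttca

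The 9 Pcdhb members with the word had log2 fold changes from -0.04 to 1.45 with a median of 0.93, and 8 of them were higher in old cells. The 3 with a promoter entry and no such word (Pcdhb6l, Pcdhb15 and Pcdhb16l) had log2 fold changes from -0.45 to 0.52 with a median of 0.22, and 2 of them were higher in old cells. With 3 genes on that side the difference was not tested, and the match describes letters in a sequence and not binding in these cells. Pcdhb12 and Pcdhb20, whose windows are both printed above, had log2 fold changes of 1.45 and -0.04. Ctcf itself measured 47.3 to 57.9 CPM over the 6 libraries, with a log2 fold change of 0.05 (SE 0.10).

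The alpha and gamma clusters were each represented by 1 row. Pcdhgc3 (ENSRNOG00000063070) measured 320.1, 288 and 325 CPM in young and 369.8, 247 and 442 CPM in old cultures. The highest and the lowest library were both old, and the log2 fold change was 0.18 (SE 0.21). The Pcdha4 row had 20.4, 24.0 and 29.5 CPM in young and 32.9, 60.9 and 20.0 CPM in old cultures, with a log2 fold change of 0.62 (SE 0.39). The isoforms of each cluster share their last exons, and in RefSeq 14 alpha isoform names are synonyms of Pcdha4, so these values cannot be assigned to 1 isoform.

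Of the giant cadherins, Fat1 (ENSRNOG00000030954) measured 1705, 1760.2 and 2642 CPM in young and 1060.3, 1148 and 2286 CPM in old cultures. Old replicates 1 and 2 were below all young cultures, and old replicate 3 was above young replicates 1 and 2. The means were 2036 ± 526 CPM and 1498 ± 683 CPM (SD, n = 3 each), and the log2 fold change was -0.44 (SE 0.35, edgeR adjusted p = 0.472). It was -0.21 without young replicate 3 and -0.88 without old replicate 3. Fat1 took the largest share of the reads of the family, and the summed level of the 41 members followed it, at 3485 to 4598 CPM in young and 2706 to 4159 CPM in old libraries.

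Fat4 (ENSRNOG00000028335), which with Dchs1 forms a ligand and receptor pair of planar polarity, measured 45.6, 40.3 and 42.8 CPM in young and 43.0, 40.5 and 52.4 CPM in old cultures. It moved little, with a log2 fold change of 0.08 (SE 0.12). Dchs1 spanned a far wider range within each age, 13.3, 2.39 and 1.87 CPM in young and 8.91, 26.6 and 2.61 CPM in old cultures. Its log2 fold change of 1.12 had an SE of 1.03. Fat3 was similar, at 14.9, 6.83 and 28.3 CPM in young and 43.1, 6.75 and 54.1 CPM in old cultures, with a log2 fold change of 1.06 (SE 0.80). The lowest library of Fat3 was old, as was the highest.

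The 3 Celsr genes, the flamingo cadherins of planar cell polarity, were all low, at 8 to 157 counts. Celsr1, Celsr2 and Celsr3 had log2 fold changes of 0.58 (SE 0.46), -0.54 (SE 0.38) and 0.38 (SE 0.49), with overlapping groups in each. None of the 3 had an unadjusted p under 0.05.

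The old cultures also differed among themselves in the family. The highest value over the 6 libraries was in old replicate 3 for 12 members, in old replicate 2 for 10 and in old replicate 1 for 4. Young replicates 1, 2 and 3 held it for 1, 6 and 8 members. Over all genes the same shares were 23.9%, 19% and 12.9% in old replicates 3, 2 and 1. Dsc2, Cdh23, Pcdhb3 and Pcdhb12 each had their lowest old value in old replicate 1, whose smooth muscle marker sum of 5560 CPM was the highest of the old cultures and whose fibroblast marker sum of 1660 CPM was the lowest. Cdh3 and Cdh24 had their highest old value in the same culture, and these 6 were thus nearest to the young level there. The other members at an unadjusted p under 0.05 were not: Pcdh1 had its lowest old value in old replicate 1, at 2.21 CPM, and Cdh18 and Ctnnd1 had their highest in old replicate 3, at 0.41 and 382 CPM. Single markers did not all follow the sums. Acta2, Tagln, Cnn1, Smtn and Lmod1 were highest of the old cultures in old replicate 1, and Des and Actg2 were in between. Myh11 was lowest there, at 77.9 CPM against 229 and 95.4 CPM in old replicates 2 and 3. All fibroblast markers but Dpt were lowest there, and Dpt was highest, at 17.0 CPM against 2.62 and 15.3 CPM. Whether those marker levels have a part in these values was not tested. Left out of the fit, that library raised the number of genes edgeR called from 1 to 732 over all genes and from 0 to 2 among the members, Dsc2 and Pcdhb12.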

How the data were processed

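RNA of cultured VSM cells was sequenced from 3 young and 3 old rats in pairs of reads on stranded libraries. Per the submitters' processing notes and the methods of the study, the authors trimmed reads with Trim Galore 0.6.7 and cutadapt 3.5, aligned them to Rnor 6.0 with STAR 2.7.10b, counted them with featureCounts (Subread 2.0.8) and deposited raw counts per gene, without normalization. The methods name a RefSeq annotation and the table uses Ensembl identifiers, so how the names were joined is unclear. How strand, mates and multi-mapped reads were handled is not given in the sources used here. Even numbers made up 68.7% to 71.1% of the counts from 1 to 19, as counting by mate would leave, and then the counting error of low genes is larger than the counts imply. No gene was under 10 counts in more than 3 libraries, so low genes had been removed.

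edgeR 4.0.16 under R 4.3.3 was run on the counts (TMM, quasi-likelihood F test, design of age alone with young as reference, Benjamini-Hochberg adjustment over all 14475 genes). Each SE is the size of the log2 fold change over the square root of its F statistic. DESeq2 1.42.0 and limma-voom (limma 3.58.1) were alternatives, beside RLE factors, library size only, genes above 1 CPM, a replicate block, halved counts, an adjusted p under 0.1 and each library left out. The fits and calls of edgeR, DESeq2 and limma-voom were checked on simulated counts, and the other steps were not. Members and gene lists were chosen with earlier results of these data known. Described gene by gene were members called by edgeR or DESeq2, those at an unadjusted p under 0.05 with a log2 fold change of 1 or more in either direction, the 10 with the highest CPM, the catenins, and cadherins of the cell types of an artery, 18 in all, and partner genes past the same p and fold. Values of some other members and of Dsp, Ctnnb1, Adam10 and Ctcf are also given, outside this rule. The p-values set the difference between the ages against the spread between these cultures. No column was left unused. Promoter sequences are RefSeq's on GRCr8, a build other than that of the counts, and gene coordinates were not used here. A gene counted in the partner lists is not reported here by name.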

Additional observations from a re-analysis of the deposited data

How the results depend on the processing

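edgeR called 0 members with RLE factors, library size only, genes above 1 CPM, halved counts, the replicate block or an adjusted p under 0.1, limma-voom called 0 and DESeq2 called 4. With each library left out in turn edgeR called 0 to 2 members, the 2 without old replicate 1. Members at an unadjusted p under 0.05 numbered 6 to 13 over all settings, in which 14.7% to 32.4% of all genes had such a p, and the median log2 fold change of the members ran from 0.08 with genes above 1 CPM to 0.31 without young replicate 3. Without old replicate 2 it was 0.10. Partner and cadherin-like genes at that p numbered 14, and 9 to 14 with a library left out, 9 without old replicate 2. The Pcdhb median ran from 0.49 without old replicate 2 to 1.03 without young replicate 3, and of the 6 Pcdhb genes above 1 CPM 4 were higher in old. Of 231 log2 fold changes of the 18 named members over 13 alternatives, 6 turned sign, all with a library left out and all in members near 0. Cdh11 then ranged from -0.26 to 0.17 (0.06 without young replicate 1, 0.0071 without old replicate 2), Cdh15 from -0.041 to 0.27, Fat4 from -0.0395 to 0.15 and Pcdhgc3 from -0.011 to 0.38. The replicate numbers were not used for pairing, since the correlations of same-numbered libraries were 0.0632, 0.322 and 0.313 and 3 of 6 libraries correlated best with their own number in the other group, and with the replicate block 13 members (31.7%, beside 22.5% of all genes) stood at an unadjusted p under 0.05 and 0 were called. The 13 members at or under 1 CPM on average rest on few counts, which limits the precision of their values.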
